A study of Mus musculus with 12 samples.

Results

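Primary mouse hepatocytes (mouse HPC) were compared 20 min after addition of TGF-β1 with untreated cells of the same culture system, which is the earliest contrast of a time course. The arrays were taken by their labels, 3 of cells treated for 20 min and 3 of untreated controls, paired by replicate number, which makes 6 of the 12 arrays of the series. All cells came from male C57BL/6 mice with no allele named. They were isolated with collagenase, plated on collagen-coated dishes in serum-free medium, grown for 24 h after a renewal of the medium, and given a fresh exchange of medium 1 h before stimulation. Treated cells received recombinant human TGF-β1 at 1 ng/ml. The age of the animals is not given in the sources used here. Untreated cells were measured only at the start, so 20 min with TGF-β1 and 20 min more after the exchange of medium cannot be told apart. The labels do not say whether the replicates came from separate animals, so the p-values below cannot be taken to measure a spread between animals. They rest on the spread left among the 12 arrays once time point and replicate are taken out. The description covers 19938 genes.

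TGF-β1 binds a pair of receptor serine/threonine kinases, which phosphorylate SMAD2 and SMAD3. These join SMAD4, enter the nucleus and act on target genes, among them the feedback genes Smad7, Skil and Pmepa1. In hepatocytes the pathway is known for growth arrest, apoptosis and a loss of epithelial features. Immediate early genes are a separate class, transcribed within minutes of a stimulus without new protein synthesis. They include the AP-1 factors (Fos, Jun and Atf3 families), the EGR zinc finger factors, and the phosphatases and RNA-binding proteins that end the response.

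RNA was measured on Affymetrix Mouse Gene 1.0 ST arrays, and the deposited log2 signals had been summarised by RMA, a method that corrects, normalizes and combines the probes of a gene. The array medians lay between 6.82 and 6.93. Precision rests on 3 arrays in each group. Probe sets with 1 gene symbol were tested with limma in a model of time point and replicate over all 12 arrays. Where a gene had more than 1 probe set, the one with the highest mean level stands for it. Hepatocyte genes were high, with 16 of 25 measured in the highest quintile of genes by level and albumin (Alb) at 14.63, 14.62 and 14.57 untreated and 14.67, 14.55 and 14.67 at 20 min. The arrays of replicate 1 stood apart from those of replicates 2 and 3 in both groups, as the values by replicate below show.

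After 20 min, 0 of the 19938 genes (0.0%) passed an adjusted p under 0.05 in limma, and 0 (0.0%) passed the stricter threshold of an adjusted p under 0.01 with a 2-fold change. The smallest adjusted p was 0.195. Without the threshold for many tests, 1708 genes (8.57%) had an unadjusted p under 0.05. Lower genes outnumbered higher ones among them, with 1185 lower (5.94%) and 523 higher (2.62%) at 20 min. Of the 20 genes with the smallest p, 18 were lower, and of the 100 smallest, 86 were lower. The differences were small: those of at least 1.2-fold in the same direction in each of the 3 replicates numbered 72 lower (0.361%) and 27 higher (0.135%). With no minimum size, 3443 genes (17.3%) were below and 2918 (14.6%) above their untreated partner in 3 of 3 replicates. The words higher and lower below refer to the direction of the limma estimate, and a count of higher or lower genes to an unadjusted p under 0.05, since no single gene passed the adjustment. The split depended on the scaling of the arrays, at 886 lower to 748 higher after quantile normalization and 1023 lower to 820 higher with differences centred over level, the latter chosen after seeing the data. Without replicate 1, 9 genes passed an adjusted p under 0.05, with 697 lower and 364 higher genes at an unadjusted p under 0.05. Without the untreated array of replicate 1 alone, 3 genes passed.

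The shift followed the level of the genes. Genes were ordered by their mean log2 signal over all arrays and divided into 5 equal groups. The median log2 difference was 0.01 in the lowest quintile, 0.04 in the next, 0.03 in the middle, -0.05 in the next and -0.05 in the highest. Lower genes numbered 37, 61, 184, 466 and 437 from the lowest to the highest quintile, and higher genes 43, 137, 183, 91 and 69. So 11.7% and 10.96% of the genes in the upper 2 quintiles were lower, against 0.928% in the lowest. Over all genes the median was 0.00.

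**Figure D1:**
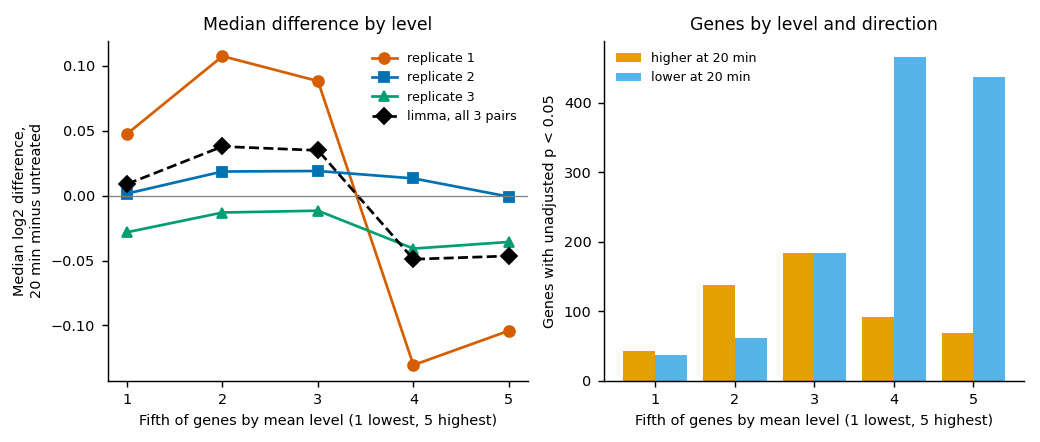
Left, median log2 difference between 20 min and untreated (y axis) in quintiles of genes by mean level (x axis), for each replicate pair and for the limma estimate; right, number of genes with an unadjusted p under 0.05 (y axis) in the same quintiles. Replicate 1 runs from 0.11 in the second quintile to -0.13 in the fourth, and the lower genes gather in the upper 2 quintiles, with 466 and 437.

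This dependence on level was mostly that of replicate 1. Its median difference was 0.05, 0.11, 0.09, -0.13 and -0.10 from the lowest to the highest quintile. In replicate 2 the same medians reached at most 0.02, and in replicate 3 they lay between -0.04 and -0.01. The spread of the log2 signal within an array moved the same way: its interquartile range was 3.24 untreated and 3.10 at 20 min in replicate 1, against 3.28 and 3.28 in replicate 2 and 3.30 and 3.30 in replicate 3. After quantile normalization the medians of replicate 1 were 0.04, 0.07, 0.08, -0.02 and -0.02 from the lowest to the highest quintile. The part of this narrower range in the shift was not tested.

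Replicate 1 also had the widest differences. Their standard deviation over genes was 0.24 in replicate 1 and 0.13 in each of replicates 2 and 3. It held 258 genes at least 1.5-fold lower and 108 at least 1.5-fold higher. The same counts were 19 and 17 for replicate 2, and 17 and 16 for replicate 3. Across genes, which are not independent replicates and share the arrays' scaling, the differences had a Pearson r of 0.25 between replicates 1 and 2, 0.12 between 1 and 3 and 0.24 between 2 and 3. Among genes at or above the median level these were 0.34, 0.14 and 0.36.

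Among genes of at least median level, an unadjusted p under 0.05 and 1 direction in 3 of 3 replicates, Ccn2 had the largest higher value. Ccn2 encodes connective tissue growth factor, a secreted matricellular protein and a known target of SMAD and of YAP, on chromosome 10 at 24595442 to 24598683 (GRCm38.p6). Its log2 signal was 11.27, 11.33 and 11.70 untreated and 12.25, 12.36 and 12.31 at 20 min. All 3 treated arrays lay above all 3 untreated ones, a log2 difference of 0.87 ± 0.21 (standard error) or 1.83-fold (limma, adjusted p = 0.286). Flnc, the actin cross-linker filamin C, had 7.62, 7.68 and 7.99 untreated and 8.48, 8.61 and 8.60 at 20 min. These groups did not overlap either, with a log2 difference of 0.80 ± 0.23 (limma, adjusted p = 0.391). For Ly6d, a GPI-anchored surface protein, the difference of 0.78 ± 0.33 came largely from replicate 1, at 9.02 untreated and 10.66 at 20 min. Its other arrays read 10.75 and 11.16 untreated and 11.37 and 11.25 at 20 min. Syde1 (0.70), the adaptor Sorbs2 (0.60), the lipoxygenase Aloxe3 (0.53) and the ubiquitin ligase Rnf213 (0.51) shared this pattern, with the widest difference in replicate 1. In Fgd3, an exchange factor for Cdc42, the 3 replicates were close together, at 0.54, 0.56 and 0.56 (limma, adjusted p = 0.414). The noncoding RNA Lncenc1 (0.69) and the orphan receptor Gprc5a (0.68) complete the 10.

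The lower side was led by Sdf2l1, an endoplasmic reticulum (ER) protein of the chaperone complex, on chromosome 16 at 17130138 to 17132383. It had 9.48, 10.40 and 10.44 untreated and 9.40, 9.17 and 8.95 at 20 min. The groups did not overlap, but replicate 1 differed by only -0.08 and replicates 2 and 3 by -1.24 and -1.49. The limma estimate was -0.94 ± 0.23, or 1.91-fold lower (adjusted p = 0.302). Derl3, a channel protein of ER-associated degradation, had 8.94, 8.61 and 8.65 untreated and 8.63, 7.62 and 7.65 at 20 min, a log2 difference of -0.76 ± 0.17 (limma, adjusted p = 0.265). Its groups overlapped through replicate 1. Ddit3, the stress transcription factor CHOP, also known from the ER stress response, was among the 10 as well, at -0.59 ± 0.14 (limma, adjusted p = 0.288).

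Klhl24, a substrate adaptor of a ubiquitin ligase, was lower in all 3 replicates. It had 10.91, 10.33 and 10.12 untreated and 10.08, 9.72 and 9.63 at 20 min, a log2 difference of -0.64 ± 0.09 (limma, adjusted p = 0.195). All treated arrays lay below all untreated ones. Crebrf, a regulator of CREB3 proteins, differed by -1.08, -0.45 and -0.52 in the 3 replicates (limma estimate -0.68 ± 0.13, adjusted p = 0.21). The leptin receptor Lepr had 8.76, 9.61 and 9.59 untreated and 8.34, 8.85 and 8.99 at 20 min, a log2 difference of -0.59 ± 0.14. Rarres1, a retinoic acid-inducible membrane protein, was lower by similar amounts in each replicate, with an estimate of -0.73 ± 0.14. The taste receptor gene Tas2r143 (-0.78), the phosphate transporter Slc34a2 (-0.64) and the adhesion receptor Adgrf1 (-0.61) had their widest difference in replicate 1.

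**Figure D2:**
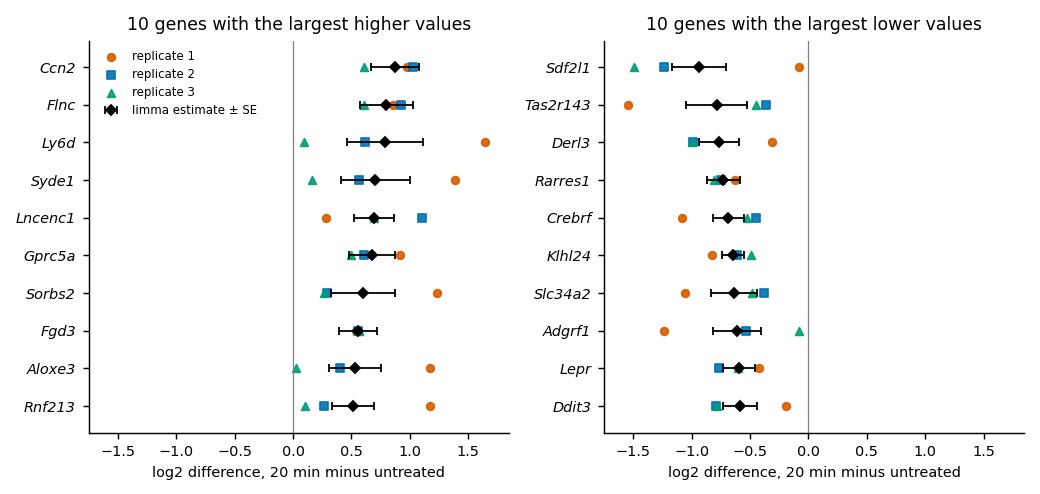
Log2 difference between 20 min and untreated (x axis) for the 10 genes with the largest higher and the 10 with the largest lower values (y axis), as points for the 3 replicate pairs and as the limma estimate with its standard error. Ccn2 (0.87), Flnc and Fgd3 lie close together over the replicates, while Ly6d and Tas2r143 rest mostly on replicate 1 and Sdf2l1 (-0.94), Derl3 and Ddit3 mostly on replicates 2 and 3.

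The smallest p over all genes belonged to Btbd8, a BTB domain protein, on chromosome 5 at 107437930 to 107512560. It had 6.87, 6.55 and 6.55 untreated and 6.16, 5.98 and 6.23 at 20 min, with a log2 difference of -0.53 ± 0.07 (limma, adjusted p = 0.195). Its groups did not overlap. H2az2, a variant histone H2A, differed by -0.41 ± 0.06 (limma, adjusted p = 0.195), within each replicate and not across the groups, as replicate 1 had the higher level in both (9.42 and 9.02, against 8.58 to 8.72 and 8.24 to 8.25). Klhl24 was the remaining one of these 3.

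The AP-1 and EGR genes, the classical immediate early factors, did not all differ in 1 direction at 20 min. Of 14 measured, 1 was higher and 2 were lower (7.14% and 14.3%, against 2.62% and 5.94% of all genes). Values below 0 numbered 10, and the median difference was -0.08. Of the 14, 9 lie in the upper 2 quintiles, where 65.7% and 68.0% of genes were below 0 and 11.7% and 10.96% were lower. In a fit of the 6 compared arrays alone 5 of the 14 were lower, and with replicate as a random effect 0. Atf3, a stress-inducible repressor, had 12.70, 11.74 and 11.72 untreated and 12.53, 11.32 and 11.19 at 20 min, a log2 difference of -0.37 ± 0.14 (limma, adjusted p = 0.494). Egr2 was lower by 0.22 ± 0.10, with -0.28 and -0.39 in replicates 1 and 2 and -0.01 in replicate 3. Fosl1, which encodes FRA-1, was the higher one, at 10.79, 11.37 and 11.48 untreated and 11.09, 11.58 and 11.57 at 20 min (log2 difference 0.20 ± 0.08; limma, adjusted p = 0.518). Each of these differences had 1 direction within the replicates, yet the groups overlapped across them.

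Fos itself had a log2 difference of -0.03 ± 0.10 and Jun of -0.03 ± 0.07, and the sign of both changed with the processing. Egr1 had 11.54, 11.37 and 11.48 untreated and 11.51, 11.20 and 11.20 at 20 min, a difference of -0.16 ± 0.08 (limma, adjusted p = 0.626). The values of Jund (-0.16), Maff (-0.28), Junb (-0.18) and Mafk (-0.13) were also below 0, and those of Egr3 (0.04), Egr4 (0.04), Fosb (-0.02) and Fosl2 (0.01) near 0. The signs of Egr3, Egr4, Fosb and Fosl2 changed with arrays left out. The signals of Jun, Atf3, Fosl1 and Egr1 in the untreated cells were already between 10.79 and 12.70.

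**Figure D3:**
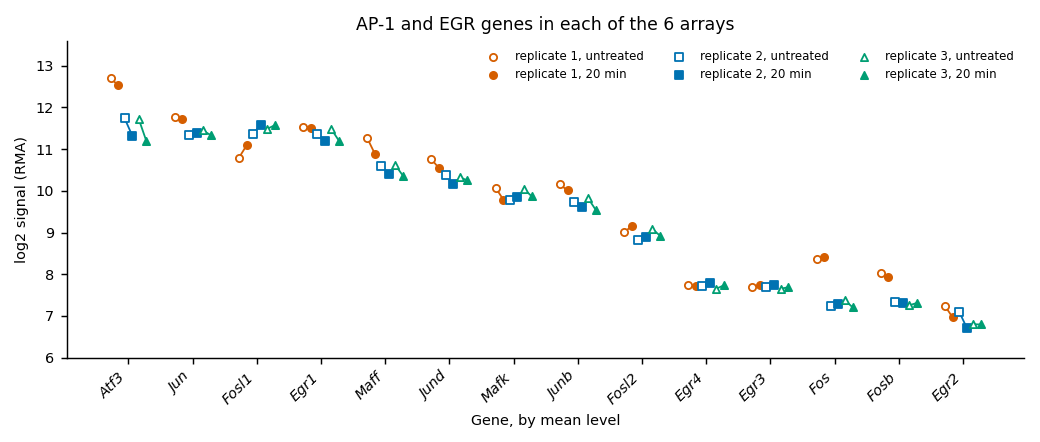
Log2 signal (y axis) of the 14 AP-1 and EGR genes (x axis, by mean level) in the 3 untreated arrays (open symbols) and the 3 arrays at 20 min (filled symbols), joined within a replicate. For Atf3 (-0.37) and Fosl1 (0.20), which slope in opposite directions, the lines are short against the distance of replicate 1 from the others.

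Over a wider list of immediate early genes, 4 of 85 measured were higher and 6 lower (4.71% and 7.06%, against 2.62% and 5.94% of all genes). The 4 higher were Ccn2, Fosl1, Ier5 and Plaur. Plaur, the urokinase receptor, had 8.59, 9.41 and 9.78 untreated and 9.27, 9.83 and 9.92 at 20 min (0.41 ± 0.12; limma, adjusted p = 0.388). The 6 lower were Atf3, Egr2, the cAMP-response repressor Crem (-0.30 ± 0.08), the phosphatase Dusp8 (-0.20 ± 0.06), Rnd1 (-0.31 ± 0.09) and the stress gene Gadd45a (-0.32 ± 0.15). Crem differed by -0.36, -0.25 and -0.29 in the 3 replicates. The other probe set of Dusp8, at a mean level of 7.51 against 10.04, had -0.04 ± 0.09. Ccn1, a matricellular paralog of Ccn2, had a value of 0.50 ± 0.24 above 0 in 3 of 3 replicates without reaching the unadjusted threshold (limma, adjusted p = 0.604). The median of the list was -0.04, with 54 of 85 genes below 0. Of the 85, 63 lie in the upper 2 quintiles by level, where 65.7% and 68.0% of genes were below 0. The medians of these quintiles were both -0.05, so the list lay near the genes of its level. Under the alternatives, 1 to 7 of the 85 were higher and 1 to 19 lower, the 19 in a fit of the 6 compared arrays alone.

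In the TGF-β pathway the counts lay near those of all genes, of which 5.94% were lower and 2.62% higher. Of 18 receptor and SMAD genes, 1 was lower (5.56%), the activin receptor Acvr2a (-0.26 ± 0.09; limma, adjusted p = 0.483), and 0 were higher. Of 26 feedback genes and direct targets, Ccn2 was higher and Bambi, a decoy receptor, was lower (-0.39 ± 0.12; limma, adjusted p = 0.409), at -0.43, -0.10 and -0.64 in the 3 replicates. Of 14 ligand genes, the activin subunit Inhbb was higher by 0.18 ± 0.08 (limma, adjusted p = 0.575). With array weights 4 of the 18 receptor and SMAD genes were lower, and in the 6 compared arrays alone 6 of the 26 feedback and target genes.

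The feedback genes Pmepa1, Skil and Smad7 did not reach the unadjusted threshold at 20 min. Pmepa1 had 7.62, 7.81 and 7.79 untreated and 7.97 to 8.01 at 20 min, which put all treated arrays above the untreated ones, with a difference of 0.25 ± 0.23 (limma, adjusted p = 0.795). Skil differed by -0.24 ± 0.28 and Smad7 by 0.09 ± 0.34, whose sign changed with arrays left out, and the BMP target Id1 by -0.33 ± 0.24. Thbs1, a matricellular activator of TGF-β1, differed by -0.21 ± 0.19, and Lox, the collagen cross-linking oxidase, by -0.04 ± 0.16 with a sign that changed with the processing. Between 20 min and 4 h, a contrast without the untreated arrays, 91 genes were higher (0.456%) and 38 lower (0.191%) at an adjusted p under 0.05. Pmepa1, Skil, Thbs1, Lox and Ccn2 were among the higher (limma, adjusted p = 0.00283, 0.0372, 0.00411, 0.00411 and 0.0461), and Smad7 and Id1 were not (0.287 and 0.474).

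Genes of protein folding in the ER had values below 0 throughout at 20 min. Proteins that enter the secretory pathway are folded there by chaperones such as Hspa5 (BiP) and Hsp90b1 (GRP94) and by protein disulfide isomerases, and misfolded ones are removed by ER-associated degradation. The sensors Atf6, Ern1 (IRE1) and Eif2ak3 (PERK) raise these genes in the unfolded protein response. Many of their promoters carry an ER stress response element (ERSE), a CCAAT box and a CCACG box set 9 bases apart. The promoters below show the element in Hspa5, Pdia6, Creld2 and Derl3, with Sdf2l1 as the leading member for comparison. They are a choice from the 9 measured members of the group that carry it. Canx, at -0.03 ± 0.06, carries it too and is not shown.

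The stretches are the 250 bases before the annotated start in RefSeq (GRCm38.p6), written 5′ to 3′ on the strand of the gene. Capitals mark the ERSE, searched as CCAAT, any 9 bases and CCACG on both strands, in Hspa5 at chr2:34771840-34772089, Pdia6 at chr12:17266339-17266588, Creld2 at chr15:88819396-88819645 and Derl3 at chr10:75893148-75893397, all on the plus strand. In Sdf2l1 at chr16:17132384-17132633 on the minus strand, capitals mark each CCAAT and CCACG box on either strand, since the whole element is not in this window.
Hspa5: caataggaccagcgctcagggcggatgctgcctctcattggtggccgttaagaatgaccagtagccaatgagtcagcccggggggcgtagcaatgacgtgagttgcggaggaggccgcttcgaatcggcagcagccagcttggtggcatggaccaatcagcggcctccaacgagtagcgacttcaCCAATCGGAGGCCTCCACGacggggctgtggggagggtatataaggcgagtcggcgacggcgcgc
Pdia6: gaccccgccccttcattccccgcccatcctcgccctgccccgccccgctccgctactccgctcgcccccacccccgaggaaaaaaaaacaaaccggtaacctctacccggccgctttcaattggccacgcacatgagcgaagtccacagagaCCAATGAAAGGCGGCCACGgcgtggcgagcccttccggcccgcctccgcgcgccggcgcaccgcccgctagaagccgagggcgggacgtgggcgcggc
Creld2: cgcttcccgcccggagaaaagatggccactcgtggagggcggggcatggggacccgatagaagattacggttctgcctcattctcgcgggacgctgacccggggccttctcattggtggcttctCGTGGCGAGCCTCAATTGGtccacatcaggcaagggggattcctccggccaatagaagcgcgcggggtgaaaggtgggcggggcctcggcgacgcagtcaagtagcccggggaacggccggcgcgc
Derl3: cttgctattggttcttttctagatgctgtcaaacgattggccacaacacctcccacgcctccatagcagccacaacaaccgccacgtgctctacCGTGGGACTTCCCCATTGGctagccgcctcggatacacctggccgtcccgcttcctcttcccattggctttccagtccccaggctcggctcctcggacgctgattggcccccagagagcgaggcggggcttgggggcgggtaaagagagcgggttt
Sdf2l1: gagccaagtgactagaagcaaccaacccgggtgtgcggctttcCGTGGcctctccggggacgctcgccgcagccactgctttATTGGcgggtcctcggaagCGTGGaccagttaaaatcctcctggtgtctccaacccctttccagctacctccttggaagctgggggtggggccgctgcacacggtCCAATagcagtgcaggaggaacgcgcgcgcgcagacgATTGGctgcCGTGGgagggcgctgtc

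Over the 27025 genes with a promoter in the table, 0.13% held the element in this window, against 9 of the 29 genes of the ER group found there (31.0%). Of the 20 measured genes that held it, 9 were lower and 1 was higher, where 5.94% of all genes were lower and 2.62% higher. The median difference of the 20 was -0.13, against 0.00 over the 15614 measured genes with a promoter. All 9 in the ER group had values below 0, with a median of -0.29, and 8 of them were lower. The 11 outside it had a median of 0.02, with 1 lower (Ero1b, an ER oxidase, at -0.30 ± 0.12) and 1 higher (Zfp57, at 0.39 ± 0.13), both named after their values were seen. The ER list was written after the leading genes had been seen, and 8 of the 9 lower genes among the 20 belong to it. So the lower count and the median of the 20 rest on that list, and the part of the element was not tested. A match of letters is a description and no measured binding site. The cAMP element TGACGTCA (1.77% of promoters), the AP-1 site TGANTCA (7.82%), the FOXO site GTAAACA (3.54%), the TEAD site GGAATG (14.4%) and the SMAD site CAGACA (19.3%), each searched on both strands, gave medians between -0.02 and 0.01 over the measured genes that hold them. In the same order, 8.79%, 5.04%, 6.65%, 6.36% and 6.01% of those genes were lower, against 5.94% of all genes. For the TATA box TATAAA (14.3%) the median was 0.01, with 4.35% lower.

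Of 34 measured genes of ER folding, degradation and the unfolded protein response, 25 were lower and 0 higher (73.5%, against 5.94% of all genes and 10.96% of the highest quintile by level, in which 25 of the 34 lie). All 34 estimates were below 0, with a median of -0.24, and 26 were below 0 in 3 of 3 replicates. In the highest quintile 68.0% of genes were below 0, and 30.0% were below 0 in 3 of 3 replicates. The list was written after the genes with the largest values or smallest p had been seen and holds several of them, Sdf2l1, Derl3, Pdia4, Pdia6 and Ddit3 included, so its count is a description and no independent support. A list of heat shock and chaperone genes written earlier held 18 measured genes, of which 6 were lower and 0 higher (33.3% lower, against 5.94% of all genes and 10.96% of the highest quintile, in which 14 of the 18 lie). Those 6 were the ER proteins Sdf2l1, Creld2, Dnajb9, Dnajb11, Hsp90b1 and Hspa5. This list was also chosen with earlier results of these data known. It shares Sdf2l1, Creld2, Hsp90b1 and Hspa5 with the ER list, so its count is no independent support either. The other 12, chaperones of the cytosol and mitochondria such as Hspa8, Hsp90aa1 and Hspd1, were neither. Without replicate 2, 3 of the 18 were lower.

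Several chaperones were lower in replicates 2 and 3 and not in replicate 1. Hspa5 had 12.85, 13.71 and 13.70 untreated and 12.89, 13.29 and 13.22 at 20 min. The untreated array of replicate 1 already read below all treated arrays, and the replicate differences were 0.03, -0.42 and -0.48 (limma estimate -0.29 ± 0.11, adjusted p = 0.495). Creld2, an ER disulfide isomerase, was likewise low in the untreated array of replicate 1, with 11.27, 12.33 and 12.21 untreated and 11.34, 11.45 and 11.23 at 20 min. Its differences were 0.07, -0.88 and -0.98 (limma estimate -0.60 ± 0.17, adjusted p = 0.384). Over the list, the median differences were -0.12 in replicate 1, -0.30 in replicate 2 and -0.27 in replicate 3, so replicate 1 had the smallest here and the largest over the upper quintiles of all genes.

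Pdia6 and Pdia4 were lower in all 3 replicates. Pdia6, a disulfide isomerase like Pdia4, had 10.72, 10.85 and 10.78 untreated and 10.40, 10.47 and 10.29 at 20 min. Its groups did not overlap, with a log2 difference of -0.40 ± 0.07 (limma, adjusted p = 0.209). Pdia4 had 12.04, 12.44 and 12.39 untreated and 11.76, 11.89 and 11.82 at 20 min, a log2 difference of -0.47 ± 0.09 (limma, adjusted p = 0.21). These groups did not overlap either. Of the sensors, Eif2ak3 was lower by 0.31 ± 0.06, Atf6 by 0.17 ± 0.07 and Ern1 by 0.15 ± 0.06, each in 3 of 3 replicates. The degradation genes Sel1l (-0.46), Edem1 (-0.22), Herpud1 (-0.34), Syvn1 (-0.26) and Derl2 (-0.23) were lower as well. Xbp1, which encodes the factor spliced by Ern1, had -0.04 ± 0.06, and the lectin chaperone Canx had -0.03 ± 0.06. Derl1, Ssr1, Ppp1r15a, Pdia3, Pdia5, Sec61b and Txndc5 were the remaining members without an unadjusted p under 0.05.

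**Figure D4:**
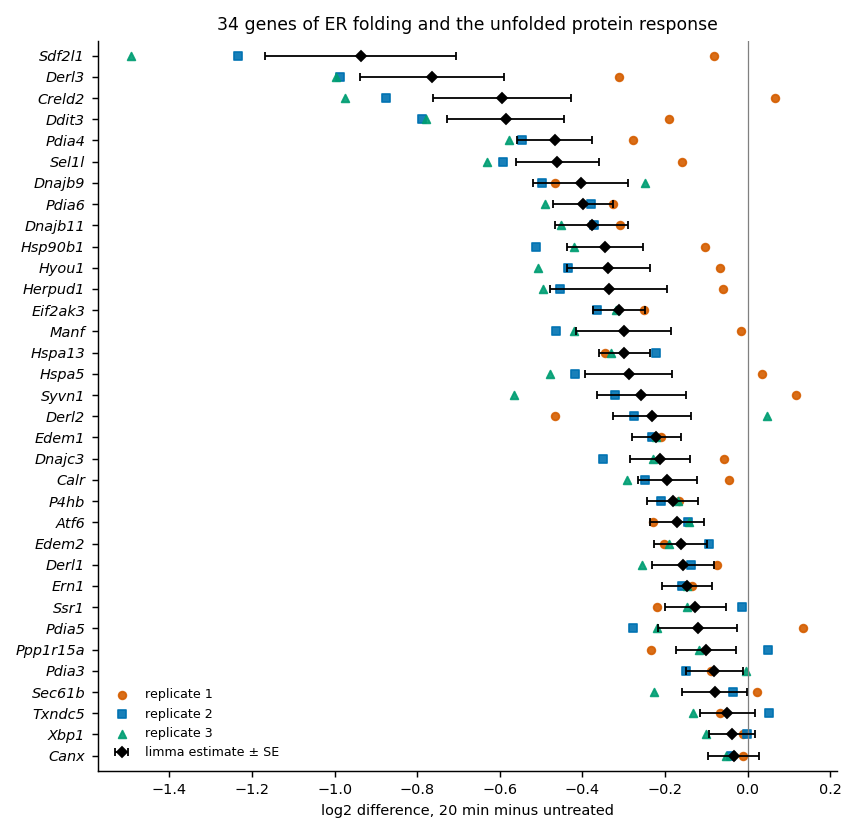
Log2 difference between 20 min and untreated (x axis) for the 34 genes of ER folding and the unfolded protein response (y axis), as points for the 3 replicate pairs and the limma estimate with its standard error. All estimates lie below 0, from -0.94 in Sdf2l1 to -0.03 in Canx, and for Sdf2l1, Derl3 and Creld2 replicates 2 and 3 lie farther from 0 than replicate 1.

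Without replicate 1, 23 of the 34 were lower, and Sdf2l1 (-1.36), Derl3 (-0.99), Creld2 (-0.93), Ddit3 (-0.78) and Pdia4 (-0.56) were 5 of the 9 genes with an adjusted p under 0.05 in limma (0.00417, 0.00593, 0.00593, 0.00593 and 0.0347). The others were Rarres1, Fgd3, Lncenc1 and Glyat, a glycine acyltransferase (0.65), the last named after its values were seen. Without replicate 2, and also without replicate 3, 13 of the 34 were lower, and without the replicate term 14. After quantile normalization 21 of the 34 were lower, and 17 with differences centred over level, the latter chosen after seeing the data. At later times the same untreated arrays serve as controls. The median of the list against them was -0.23 at 2 h and -0.31 at 4 h, where 19 of the 34 were lower at an adjusted p under 0.05 (3.19% of all genes lower and 1.66% higher).

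A set of genes known as targets of FoxO factors or of nutrient withdrawal, also written after the leading genes had been seen, held 13 lower and 0 higher genes of 32 measured (40.6% lower, against 5.94% of all genes and 10.96% of the highest quintile, in which 20 of the 32 lie), with a median of -0.19. The medians were -0.31 in replicate 1, -0.12 in replicate 2 and -0.04 in replicate 3, so the list leaned on replicate 1. It includes Klhl24 and Crebrf from above, so its count supports nothing further. The count was 8 without the untreated array of replicate 1, 8 without the treated array of replicate 2, and 5 without the replicate term. Arrdc3, an arrestin-like adaptor, had differences of -0.49, -0.58 and -0.24, and the cyclin Ccng2 of -0.89, -0.38 and -0.45. Unlike the list, the autophagy gene Atg13 (-0.34, -0.34 and -0.35) and the coactivator Calcoco1 (-0.30, -0.29 and -0.32) had nearly equal differences in the 3 replicates. Igfbp1, a fasting-induced IGF-binding protein, was lower by 0.30 ± 0.10 (limma, adjusted p = 0.465). The gluconeogenic gene Pck1 and the kinase gene Pdk4 were among the 19 that were neither. In an earlier list of cAMP and fasting genes, 3 of 20 were lower (Crem, Igfbp1 and Tat) and 0 higher. That is 15.0%, near the 10.96% of the highest quintile, in which 15 of the 20 lie.

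Genes of the actin cytoskeleton lay mostly above 0. Of 25 measured genes of the cytoskeleton and of SRF, the serum response factor, whose activity follows the pool of free actin, 5 were higher and 0 lower (20.0%, against 2.62% of all genes), with a median of 0.12 and 21 values above 0. Besides Flnc these were Tagln2, an actin-bundling protein, Flna (filamin A), Vcl (vinculin) and the tubulin Tubb6. Tagln2 had 9.38, 10.50 and 10.68 untreated and 10.18, 10.84 and 11.01 at 20 min. The groups overlapped across replicates, while the difference within them was 0.80, 0.34 and 0.33 (limma estimate 0.49 ± 0.14, adjusted p = 0.384). Flna was higher by 0.35 ± 0.15 and Vcl by 0.18 ± 0.07. Replicate 3 had the smallest median of the list, at 0.01, against 0.22 in replicate 1 and 0.14 in replicate 2. The count of higher genes was 2 without replicate 2, 1 with replicate as a random effect and 0 without the replicate term. This list was chosen with earlier results of these data known and holds Flnc, so its count is no independent support.

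Targets of YAP, the mechanosensitive coactivator, and of the SRF partner MRTF share many of these genes. Of 30 measured, 7 were higher and 0 lower (23.3% higher, against 2.62% of all genes), namely Ccn2, Flnc, Flna, Tagln2, Vcl, the scaffold Ahnak (0.49 ± 0.15) and the junction protein Amotl2 (0.36 ± 0.11). This list too was written after Ccn2 and Flnc had been seen to lead, and the count includes them. The count was 4 without the untreated array of replicate 2, 2 without the replicate term, 4 with replicate as a random effect, 11 in the 6 compared arrays alone and 12 with differences centred over level. The medians were 0.21 in replicates 1 and 2 and 0.02 in replicate 3. Ankrd1, a further target, had a value of 0.24 ± 0.12 without reaching the unadjusted threshold, and Srf itself one of -0.15 ± 0.08.

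Among genes of hepatocyte metabolism, small lower values were spread over many members. Of 34 urea cycle and amino acid breakdown genes, 10 were lower and 0 higher (29.4%, against 10.96% of the highest quintile by level, in which 28 of the 34 lie). The median was -0.14, 33 values were below 0 and 23 were below 0 in 3 of 3 replicates. In the highest quintile 68.0% of genes were below 0, and 30.0% were below 0 in 3 of 3 replicates. The count of lower genes was 4 with replicate 3 left out, 4 with the treated array of replicate 1 left out, and 1 with no replicate term. Amdhd1, of histidine breakdown, had 10.32, 8.93 and 8.95 untreated and 9.81, 8.68 and 8.75 at 20 min, a log2 difference of -0.32 ± 0.09 (limma, adjusted p = 0.385). Replicate 1 stood well above the others in both groups, so the groups overlapped while each replicate was lower. The kynurenine hydroxylase Kmo (-0.22 ± 0.06), the transaminases Got1 (-0.23 ± 0.07) and Tat (-0.22 ± 0.08) and the ornithine aminotransferase Oat (-0.27 ± 0.09) were among the others. Cps1, the entry enzyme of the urea cycle, had -0.09 ± 0.07.

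Cytochrome P450 genes showed 4 of 29 lower and 0 higher, with 27 values below 0 and a median of -0.14. The share of 13.8% lower was near the 10.96% of the highest quintile, in which 22 of the 29 lie (5.94% of all genes). In that quintile 68.0% of genes were below 0. The 4 were Cyp4a14, Cyp4a10, Cyp3a25 and the sterol hydroxylase Cyp27a1 (-0.27, -0.19, -0.27 and -0.18), of which the first 3 have close paralogs that can share probe signal. The medians were -0.25 in replicate 1, -0.15 in replicate 2 and -0.00 in replicate 3, and the count followed the arrays used. It was 0 without replicate 1 or its treated array, 1 without the untreated array of replicate 1 or of replicate 2, 9 without replicate 3, 12 without its untreated array, and 2 with replicate as a random effect. Complement and acute phase genes had 5 of 27 lower and 0 higher (18.5% lower, against 5.94% of all genes and 10.96% of the highest quintile, in which 22 of the 27 lie), with the complement genes C2 (-0.24 ± 0.07), C8a (-0.23 ± 0.08) and C4b (-0.19 ± 0.07) and the LPS-binding protein Lbp (-0.22 ± 0.06) among them. Without replicate 1, 2 of the 27 were lower, 2 without its treated array, 3 without replicate 3, and 0 with replicate as a random effect or without the replicate term. Of 25 hepatocyte identity genes 1 was lower (4.00%, against 5.94% of all genes), the pioneer factor Foxa3 (-0.28 ± 0.08; limma, adjusted p = 0.39), and Alb differed by 0.02 ± 0.06.

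Clock genes, feedback regulators of daily rhythm, had 3 of 17 lower and 0 higher (17.6% lower, against 5.94% of all genes). In the upper 2 quintiles by level, which hold 13 of the 17, 11.7% and 10.96% of genes were lower. Under the alternatives 0 to 6 of the 17 were lower, with 0 after quantile normalization. Nr1d2 (-0.25 ± 0.09) and Bhlhe41 (-0.30 ± 0.14), transcriptional repressors, and the activator Rora (-0.29 ± 0.12) passed the unadjusted threshold (limma, adjusted p = 0.474, 0.585 and 0.557). The list median was -0.32 in replicate 1, against -0.05 and -0.08 in replicates 2 and 3. Among 24 NF-κB and chemokine genes, 1 was lower (4.17%, against 5.94% of all genes), the inhibitor-like coregulator Nfkbiz. It had 9.21, 8.26 and 8.37 untreated and 8.87, 7.86 and 7.91 at 20 min, a log2 difference of -0.40 ± 0.07 (limma, adjusted p = 0.209). The difference was alike in the 3 replicates, at -0.34, -0.40 and -0.45. Cholesterol synthesis genes had 0 of 18 in either direction. Cell cycle and replication genes had 1 of 27 higher (the helicase subunit Mcm6, 0.47 ± 0.18) and 3 lower (the pocket proteins Rbl2 and Rb1 and the cyclin Ccnb2). These are 3.70% and 11.1%, against 2.62% and 5.94% of all genes, and under the alternatives 0 to 5 were higher and 0 to 5 lower. Of the 27, 16 lie in the upper 2 quintiles, where 11.7% and 10.96% of genes were lower. ATF4 and amino acid response genes had 1 of 24 lower (4.17%), Ddit3.

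Over 70 markers of macrophages, stellate cells, endothelial cells and bile duct cells, 2 were higher and 5 lower (2.86% and 7.14%, near the 2.62% and 5.94% of all genes). Of 22 macrophage markers, 3 were lower (13.64%): Cd14 (-0.24 ± 0.06), Csf1r (-0.16 ± 0.07) and Fcer1g (-0.25 ± 0.11). The mean signal of the 22, on the log2 scale, was 9.24, 9.43 and 9.40 untreated and 9.09, 9.22 and 9.21 at 20 min, lower in all 3 replicates. This mean of linear signals is carried by the 2 brightest, Cd14 and Cd68, at mean levels of 12.49 and 11.85 against a list median of 7.16. The median difference over the 22 was 0.07, -0.13 and -0.05 in the 3 replicates, so the typical marker was above 0 in replicate 1. Without replicate 1, 8 of the 22 were lower, and 6 without its treated array. The defining markers Clec4f and Adgre1 lay between 6.27 and 6.81. In a bulk sample, fewer cells of a type and less RNA per cell cannot be told apart. The part of these cells in the lower values above was not tested. For stellate cell markers the same mean was 7.90, 7.43 and 7.45 untreated and 7.78, 7.51 and 7.41 at 20 min. The median difference over these 18 was 0.21, 0.04 and -0.05 in the 3 replicates, with 12 estimates above 0. Dcn, at a mean level of 8.46 against a list median of 7.16, differed by -0.54, -0.11 and -0.32. The mean was 8.05, 7.51 and 7.51 against 8.01, 7.51 and 7.54 for endothelial markers, and 6.89 to 7.60 against 6.91 to 7.60 for bile duct markers. Replicate 1 had the highest value of these 3 lists in both groups.

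**Figure D5:**
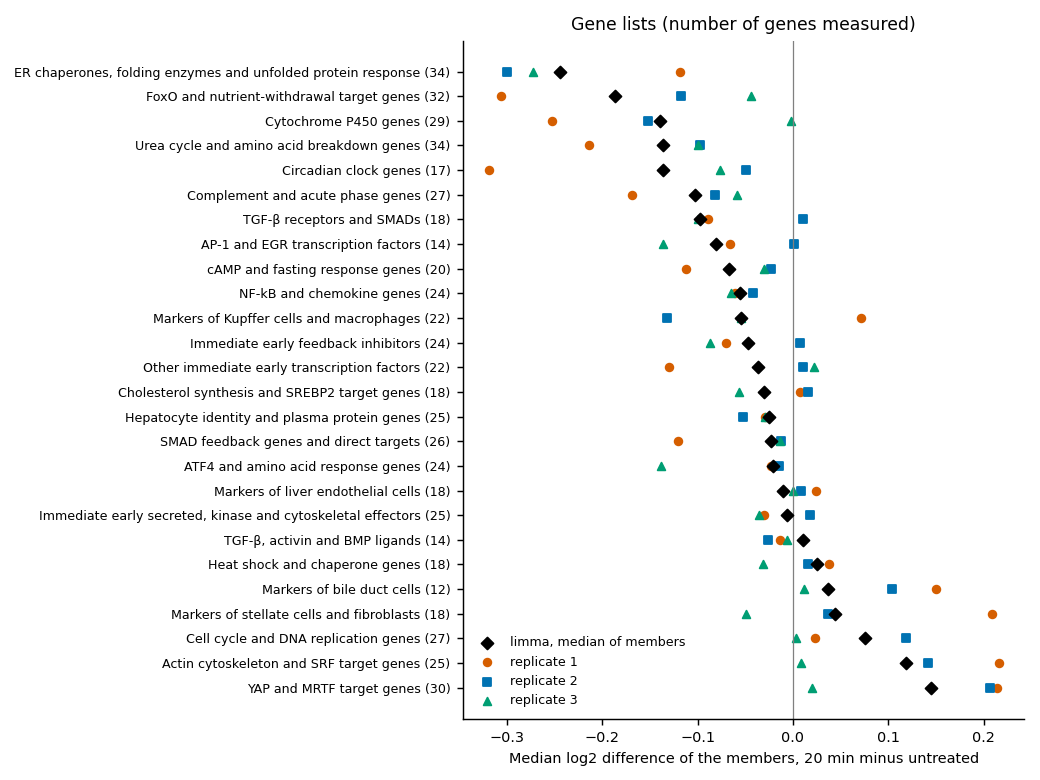
Median log2 difference between 20 min and untreated (x axis) over the members of each gene list (y axis, with the number measured), for the limma estimate and the 3 replicate pairs. The list of ER folding genes lies lowest at -0.24 and that of YAP and MRTF targets highest at 0.15.

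Gene families were also taken by their names. Among 323 solute carrier genes, which encode membrane transporters, 41 were lower and 3 higher (12.7% and 0.93%, against 5.94% and 2.62% of all genes), with 137 of the 323 in the upper 2 quintiles by level. The lower count was 23 without replicate 1, 22 without its treated array, 22 with replicate as a random effect and 9 without the replicate term. Slc7a2, the cationic amino acid transporter, had 11.91, 11.91 and 11.78 untreated and 11.39, 11.27 and 11.39 at 20 min (-0.52 ± 0.09; limma, adjusted p = 0.208). Slc16a7, a monocarboxylate transporter, had 8.98, 9.79 and 9.79 untreated and 8.56, 9.19 and 9.22 at 20 min (-0.53 ± 0.08; limma, adjusted p = 0.195). Both were lower by at least 0.39 in each replicate, Slc7a2 with no overlap between the groups. Slc38a2, which imports neutral amino acids, and the zinc transporter Slc30a5 were lower by 0.27 ± 0.06 and 0.29 ± 0.07.

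Of 57 cytosolic ribosomal protein genes and 39 proteasome subunit genes, 0 were higher and 0 lower, and all values lay between -0.13 and 0.12. Small nucleolar RNA genes had 7 of 51 lower and 2 higher (13.7% and 3.92%, against 5.94% and 2.62% of all genes). The lower share was near the 11.7% and 10.96% of the upper 2 quintiles by level, in which 34 of the 51 lie. The lower count was 4 without replicate 2, 4 without replicate 3, 2 with replicate as a random effect and 0 without the replicate term. Snora44 differed by -0.34 ± 0.08 and Snord49a by 0.27 ± 0.06. Zinc finger genes named Zfp had 22 of 317 lower and 4 higher (6.94% and 1.26%), near the share of all genes. The lower count was 6 without replicate 1 or its treated array, 8 without its untreated array, 40 without replicate 3 and 53 without the treated array of replicate 3. Zfp9 had the lowest value, with differences of -0.33, -0.47 and -0.45. Olfactory receptor genes, which hepatocytes are not known to use, had 7 of 1027 lower and 13 higher (0.68% and 1.27%) and a median of 0.00. They give the range of low probe sets in this contrast, where the median differences in the 3 replicates were 0.05, 0.01 and -0.04.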

How the data were processed

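Total RNA of 12 cultures was hybridised to Affymetrix Mouse Gene 1.0 ST arrays. The deposited values are log2 signals that the authors made by running RMA from the Affymetrix Power Tools. Their versions are not given in the sources used here. The study's own analysis used another summary and a batch correction, which can change small differences. The paper reports a strong batch effect in its mouse hepatocyte arrays, without saying which arrays formed the batches. It also excluded 1 bad array, replicate 1 at 1 h, which is not among the 12. No batch correction was made here beyond the replicate term. Of 35556 probe sets, 21789 had exactly 1 symbol in the platform annotation (19938 genes), 1621 had several and 12146 were not named here. Here limma 3.58.1 in R 4.3.3 fitted time point and replicate on all 12 arrays, with Benjamini-Hochberg adjustment over the 21789 probe sets. Replicate numbers come from the titles. Same-numbered deviations from the group means correlated at 0.81, 0.68 and 0.67, though replicates 2 and 3 also correlated with each other (0.67 and 0.71), so the replicate term mainly separates replicate 1.

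The comparison, the 23 gene lists and the 19 families were chosen with earlier results of these data known, and 3 further lists (ER folding, FoxO and YAP targets) after the leading genes had been seen. Genes were named by a rule: all AP-1 and EGR genes, the 10 largest in each direction at or above the median level with an unadjusted p under 0.05 and 1 sign in 3 of 3 replicates, up to 4 of smallest p in each list, the 3 smallest p over all, and 7 SMAD-related or early genes. Others were named after their values were seen. On simulated data for this comparison over 21789 probe sets, 40 of 50 changes of 0.5, 48 of 50 of 1 and 50 of 50 of 1.5 on the log2 scale were recovered, and 9 of 21589 unchanged ones were called. The simulated noise was drawn independently for each probe set and array, without noise shared by the genes of an array. It tests the code, and these counts do not tell which changes would be found in the real arrays. The 21 alternatives are in the closing section.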

Additional observations from a re-analysis of the deposited data

How the results depend on the processing

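Of the 198 named genes, 8 with small values changed the sign of their difference under at least 1 of the 21 alternatives, and the other 190 did so under none that gave them a value. The restriction by level gave a value for 163 of the 198, and the alternatives that alter only the error (no block, random effect, compared arrays alone, prior, paired differences) keep the estimate and so cannot change a sign. Arrays left out gave -0.0206 to 0.102 for Egr3, -0.0424 to 0.116 for Egr4, -0.111 to 0.0617 for Fos, -0.118 to 0.066 for Fosb, -0.121 to 0.132 for Fosl2, -0.0786 to 0.0209 for Jun, -0.255 to 0.199 for Lox and -0.133 to 0.261 for Smad7. Fos was 0.0067 after quantile normalization. With array weights Fosb was 0.019, Fosl2 -0.0278 and Lox 0.0875, and with differences centred over level Jun was 0.0051 and Lox 0.0213. The number of genes past an adjusted p under 0.05 in limma was 0 apart from 4 with a trended and robust prior (Btbd8, Klhl24, Slc7a2 and Sprr1a, named after their values were seen) and 0 to 9 with arrays left out, the 9 without replicate 1 and 3 without its untreated array. At an adjusted p under 0.01 with a 2-fold change, arrays left out gave 0 to 2. The cause of these gains was not tested.

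Without the replicate block, 188 genes were higher and 334 lower at an unadjusted p under 0.05, against 523 and 1185 with it. With replicate as a random effect 785 were lower. Restricting the test to the probe sets not below the median in level left 215 higher and 916 lower and moved the median over the genes from 0.00 to -0.0375, since the genes of low level, which lean upward, were left out. Centring over level gave 820 higher. An unadjusted p under 0.01 left 90 higher and 360 lower. With arrays left out, 218 to 906 were higher and 564 to 1460 lower. Leaving out the treated array of replicate 1 gave the lowest counts, and leaving out the untreated one of replicate 2 the highest. Without the treated array of replicate 3, 831 were higher, and without the untreated array of replicate 1, 743 were lower. Detection calls were not used here, so for genes of low level signal and background were not separated.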
